A study of Mus musculus with 3 samples.

Results

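A set of 10 imprinted genes that regulate growth (H19, Igf2, Igf2r, Grb10, Dlk1, Meg3, Peg3, Ndn, Mest and Plagl1), were followed in VE-Cadherin+/CD45+ cells of the mouse yolk sac. They were taken by name: every non-control probe carrying 1 of these 10 gene names on the array was used, which gave 25 of 55681 probes. Of the 25 probes 24 were tested, because 1 probe of H19 was not well above background on any array. Each of the 10 genes kept at least 1 tested probe among the 19580 genes tested.

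The study sorted yolk sac cells that carry both VE-Cadherin, an adhesion protein of endothelium, and CD45, a surface protein of blood cells, and treated them in no other way. The control group was 1 sample from control embryos at E10.5. The Tie-2-Etv2 group was 2 samples from embryos in which an Etv2 transgene is turned on by a Tie-2 Cre transgene, and their age is not given in the labels. Etv2 is an ETS factor that acts early in the making of endothelium and blood, and the Tie-2 promoter drives Cre in endothelial and blood-forming cells. Both groups were of a mixed background given as B6/CBA and others. The labels leave unsaid whether the Tie-2-Etv2 samples are from different litters or pools, and how many embryos a sample holds. The p-values thus capture the spread among these particular samples and no more, and that spread may be technical.

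Imprinted genes are transcribed mainly from the copy inherited from 1 parent, according to DNA methylation laid down in the egg or the sperm. Many act on fetal and placental growth: genes expressed from the paternal copy tend to promote it and genes expressed from the maternal copy tend to restrain it. They lie in clusters in which a long noncoding RNA, such as H19, Meg3 or Airn, is made from the opposite parental copy to its protein-coding neighbours. In these arrays RNA from both copies hybridises to the same probe, so every value is the sum over both parental copies and says nothing about imprinting itself. H19, Igf2r, Meg3 and Grb10 are expressed mainly from the maternal copy in most mouse tissues, and Igf2, Dlk1, Peg3, Ndn, Mest and Plagl1 from the paternal copy.

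The probe sequences below show stretches of the RNAs that the values of Dlk1, Meg3 and H19 come from: the dimmer, coding probe of Dlk1, the brightest and a dimmer probe of Meg3, and 3 probes of H19, of which the last was not above background on any array. The Meg3 and H19 probes lie in noncoding RNAs, and the Dlk1 probe printed has 1 open reading frame through all its 60 bases. The H19 probes printed also have such frames (1, 1 and 2), and the Meg3 probes have 0. A frame of this length therefore does not tell a coding RNA from a noncoding one. They are given 5′ to 3′ on the RNA strand, each with its position on build mm9 as the files give it.
Dlk1, chr12:110698502-110698561, plus strand: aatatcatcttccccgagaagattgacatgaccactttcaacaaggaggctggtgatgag
Meg3, chr12:110809678-110809737, plus strand: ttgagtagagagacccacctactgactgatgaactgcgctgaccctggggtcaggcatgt
Meg3, chr12:110799558-110799617, plus strand: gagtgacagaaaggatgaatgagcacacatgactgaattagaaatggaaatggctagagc
H19, chr7:149761492-149761551, minus strand: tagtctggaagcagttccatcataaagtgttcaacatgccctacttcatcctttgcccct
H19, chr7:149761693-149761752, minus strand: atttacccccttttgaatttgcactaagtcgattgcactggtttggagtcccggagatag
H19, chr7:149762417-149762476, minus strand: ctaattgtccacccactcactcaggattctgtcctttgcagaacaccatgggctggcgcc
Among all pairs of probes of the same member, the longest shared run was 26 bases, between a pair of Plagl1 probes, so those 2 probes are not independent readings.
Plagl1, shared run: atctcctaacctttgatgactctgta

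RNA of each sample was read on its own 1-colour array. The control array had 25464 probes well above background and the Tie-2-Etv2 arrays 24218 and 27018. Levels below are log2 processed signal minus the array's 75th percentile over the 22764 probes detected on all 3 arrays, so a level of 0 is that percentile and a difference of 1 is a doubling. The transgene was visible: the brighter Etv2 probe was 4.42 above the control on replicate 1 and 3.22 on replicate 2. Transcripts of the sorting markers, Cdh5 and Ptprc, were well above background on all 3 arrays, but their levels differed between groups. Cdh5 was 4.46 above the control on replicate 1 and 2.60 on replicate 2, while Ptprc was at -0.42 and -0.50. Over all 19580 genes limma called 0 (0%) at an adjusted p under 0.05, the smallest adjusted p being 0.200, and 2110 (10.8%) had an unadjusted p under 0.05. The spread came from the Tie-2-Etv2 pair alone, and the single control was assumed to vary like it; an exact permutation test of 1 against 2 arrays cannot give a p below 0.333.

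None of the imprinted growth genes passed the limma test (0 of 10, adjusted p from 0.235 to 0.995 over their 24 probes), and 1 of 10, Meg3, had an unadjusted p under 0.05 at its brightest probe. Their directions were mixed. Meg3, Peg3 and Dlk1 were lower than the control on both Tie-2-Etv2 arrays (3 of 10 genes, against 30.9% of all genes). Igf2r and Ndn were higher on both (2 of 10, against 42.5%). For the other 5, H19, Igf2, Mest, Plagl1 and Grb10, the Tie-2-Etv2 arrays lay on opposite sides of the control, against 26.6% of all genes. By their measured signals Meg3 and Peg3 were at least 2-fold lower on both arrays (2 of 10, against 6.64% of genes counted the same way), and 0 of 10 were 2-fold higher on both, against 3.92%. Peg3 was not above background on replicate 1, and with such values at the lowest detected level 1 of 10, Meg3, was 2-fold lower on both. The Tie-2-Etv2 arrays differed from each other by 2-fold or more in 6 of 10 members, against 11% of all genes. The median difference of the 10 from the control was 0.06 (0.13 on replicate 1 and -0.67 on replicate 2), beside 0.07 over all genes (0.08 and 0.05).

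**Figure D1:**
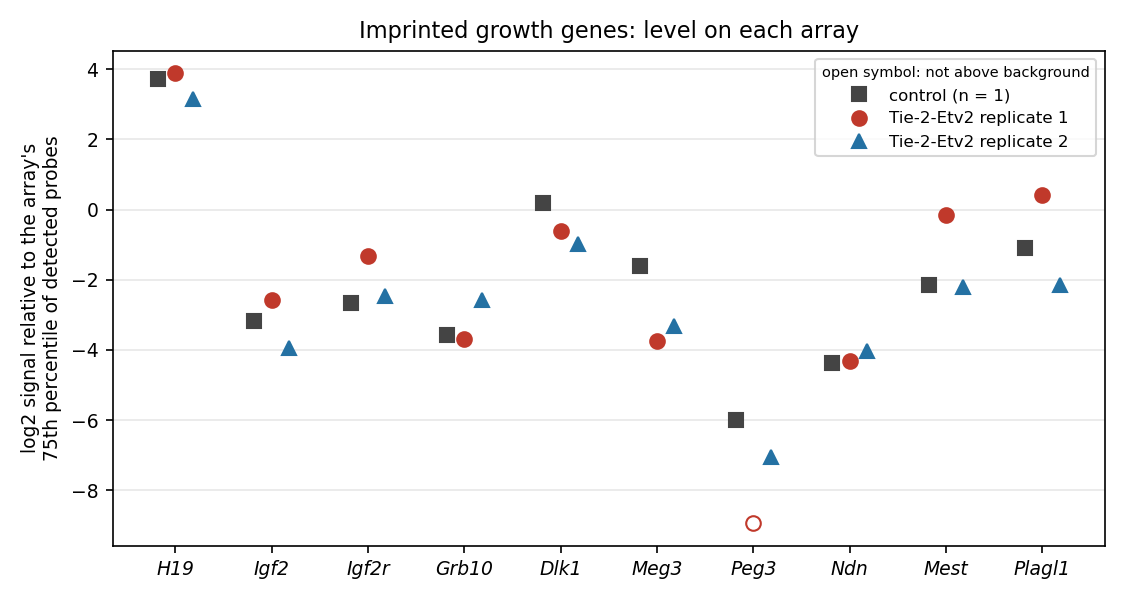
Level of each imprinted growth gene on each of the 3 arrays at its brightest probe, as log2 signal relative to the array's 75th percentile; squares are the control, circles and triangles the Tie-2-Etv2 replicates, and an open symbol is a value not above background. Meg3 and Dlk1 have both Tie-2-Etv2 symbols under the control, while for Igf2, Mest and Plagl1 the control lies between the Tie-2-Etv2 arrays or beside one of them; levels of different genes come from different probes and are not comparable.

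The clearest difference in the group was at the noncoding RNA Meg3, whose cluster it shares with the growth gene Dlk1. Meg3 is made from the maternal copy and is a marker of that cluster's imprint. Its brightest probe (chr12:110809678-110809737, plus strand, base 1651 of the listed transcript) read -1.61 on the control, -3.74 on replicate 1 and -3.31 on replicate 2. Both Tie-2-Etv2 arrays lay below the control, with differences of -2.13 and -1.70, and closer to each other than to it. The mean difference was -1.92 ± 0.37 (SE, n = 1 against 2), or 3.78-fold lower, with a limma adjusted p of 0.262. With normexp background correction the difference was -1.51 and Meg3 passed the limma test (adjusted p = 0.0378). Meg3 was the 1 member among the 609 of 19580 genes (3.11%) that passed there. In that setting limma shared 1 spread among all probes, and the dimmer Meg3 probe described below did not pass. With no filter on dim probes 440 of 36088 genes (1.22%) passed, and 0 members did so at their brightest probe.

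A dimmer Meg3 probe also read lower, but it was tested only because the control was above background. Its direction is therefore no separate support for the brightest probe. At chr12:110799558-110799617 the control, at -6.30, was well above background and neither Tie-2-Etv2 array was, which gives at least 1.85-fold lower on both together (adjusted p of the fit 0.238). A bound of this kind sets the control against, for each dim array, the higher of the probe's own level and the lowest level of any probe detected on that array. All bounds here and below are for the processed signal, and the difference can be smaller with another background correction. At this Meg3 probe, with normexp, replicate 1 was 0.26 above the control and replicate 2 differed by -0.41.

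Dlk1 encodes a membrane protein of the Delta-like family that is made from the paternal copy and limits differentiation of precursor cells in several tissues. Its brighter probe (chr12:110698721-110698781, plus strand, base 1513) read 0.19 on the control, -0.62 on replicate 1 and -0.97 on replicate 2. Both Tie-2-Etv2 arrays were lower, with differences of -0.81 and -1.16. The mean difference was -0.98 ± 0.35 (SE), or 1.98-fold lower, with an adjusted p of 0.479 in the limma fit. The coding probe printed above read -2.48 on the control, -3.79 on replicate 1 and -3.87 on replicate 2. Its mean difference was -1.35 ± 0.32 (SE), 2.54-fold lower with an adjusted p of 0.316, and the replicates here differed from the control by -1.31 and -1.38. Dlk1 and Meg3 come from opposite parental copies, and at their brightest probes both were lower on both arrays under every scaling tried, normexp included.

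In sorted bulk samples a lower value can mean fewer cells of a type or less RNA per cell, and these cannot be told apart. Of markers of cells that the gate should leave out, those of mesenchyme (8 of 12 tested) and visceral endoderm (23 of 26) were mostly lower on both arrays, against 30.9% of all genes. Trophoblast markers, also outside the gate, were not, with 0 of 4 tested lower on both. Over all genes 6.64% were 2-fold lower on both arrays. Of 19 mesenchyme markers 12 were tested and 6 were 2-fold lower on both arrays; their summed signal, in units of the array's 75th percentile, was 1.55 on the control, 0.308 on replicate 1 and 0.191 on replicate 2. The 7 not tested were Msln, Pdgfra, Prrx1, Tcf21, Twist2, Upk3b and Wt1, none of which was well above background on the control. The collagen gene Col1a1 was lower, at -4.41 and -4.97, and the matrix gene Lum was at least 15.1-fold lower. Against this, Thy1 (3.28 and 0.88) and Twist1 (0.99 and 1.39) were higher on both arrays, and Postn and Pdgfrb lay on opposite sides. Of 28 visceral endoderm markers 26 were tested and 20 were 2-fold lower, with sums of 56.9, 8.70 and 24.6. The part of these cells in the values of the imprinted genes was not tested.

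H19, the noncoding RNA beside Igf2, gave strong signal on all 3 arrays, and its 7 probes did not all give the same answer. The brightest (chr7:149761492-149761551, minus strand, base 2500) had intensities of 27024 on the control, 17668 on replicate 1 and 18559 on replicate 2, with no saturated spot on any array. Scaled to each array, its level was 3.70 on the control, 3.88 on replicate 1 and 3.15 on replicate 2. The control therefore lay between the Tie-2-Etv2 arrays, and the difference of -0.19 ± 0.45 (SE) had a limma adjusted p of 0.955. With spike-in scaling the small excess on replicate 1, 0.18, became -0.02.

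The other 5 tested H19 probes, all further 5′ than the brightest, were lower on both Tie-2-Etv2 arrays under every scaling tried. From 3′ to 5′, the probe starting at base 149761693 was at -0.34 on replicate 1 and at -0.86 on replicate 2. The next, starting at 149761756, was at -0.41 and -0.80, and the one starting at 149761957 was at -0.76 and -0.90. Each replicate thus put these 3 probes below the control. The probes at 149762113 and 149762173 abut, with a gap of 0 bases, and were at -0.39 and -0.63 on replicate 1 and at -0.72 and -0.99 on replicate 2. Over the 6 tested probes the difference ran from -0.76 to 0.18 on replicate 1 and from -0.99 to -0.56 on replicate 2. None was 2-fold lower on both arrays, and the smallest limma adjusted p among them was 0.512. The most 5′ probe, at 149762417, was not above background on any array, with intensities of 6.88 on the control, 2.12 on replicate 1 and 8.02 on replicate 2.

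**Figure D2:**
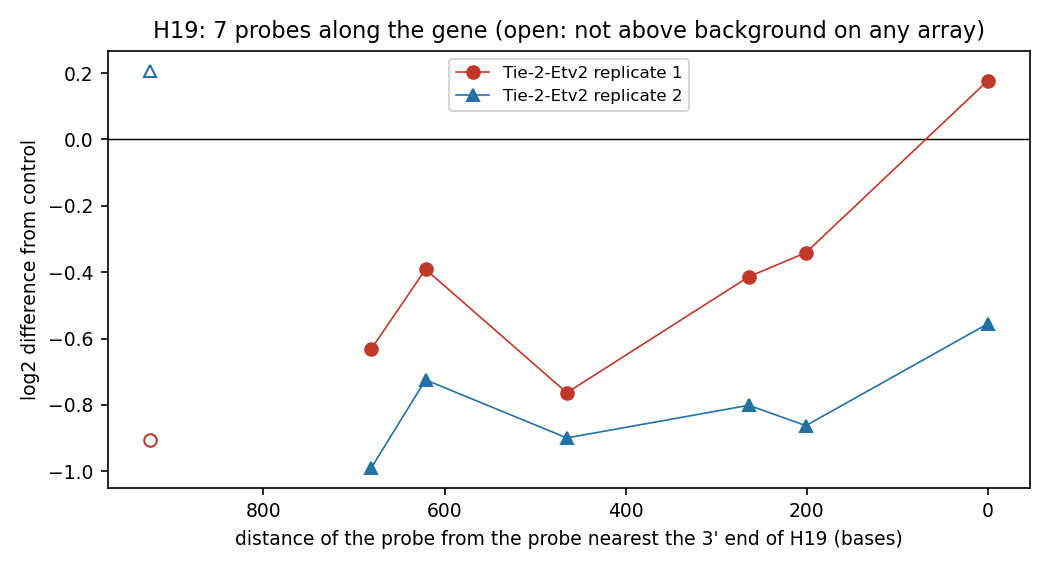
Log2 difference from the control at each of the 7 H19 probes, for Tie-2-Etv2 replicate 1 (circles) and replicate 2 (triangles), against the distance in bases of the probe's start from that of the most 3′ probe. Replicate 2 lies below 0 at all 6 tested probes, and replicate 1 lies below 0 at 5 and at 0.18 at the most 3′ probe; the open symbols mark the probe that was not above background.

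Igf2, a fetal growth factor made from the paternal copy beside H19, gave no direction. Its 1 probe (chr7:149839661-149839720, minus strand, base 990) read -3.18 on the control, -2.59 on replicate 1 and -3.96 on replicate 2. Replicate 1 was 0.59 above the control and replicate 2 was at -0.78, so the control lay between them. The mean difference was -0.10 ± 0.68 (SE), with an adjusted p of 0.987 in the limma fit. The order of the arrays was the same as at the brightest H19 probe: replicate 1 highest, replicate 2 lowest. At the other 5 tested H19 probes the control was highest, and with spike-in scaling it was highest at the brightest H19 probe too.

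Igf2r, the receptor that binds Igf2 and carries it to the lysosome for degradation, is made from the maternal copy. It was spotted 10 times on each array (chr17:12875253-12875263, minus strand, base 8733; the files give a span of 11 bases). Its spots ran from 305 to 367 in intensity on the control, from 456 to 524 on replicate 1 and from 342 to 414 on replicate 2. After scaling, the levels were -2.66 on the control, -1.32 on replicate 1 and -2.45 on replicate 2. Both Tie-2-Etv2 arrays were higher, but by 1.34 on replicate 1 and only 0.20 on replicate 2. The SD of the 10 spots, which measures technical spread within an array only, was at most 0.0837 on the log2 scale. The mean difference was 0.77 ± 0.59 (SE), with a limma adjusted p of 0.807.

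Grb10 encodes an adaptor protein that binds the insulin and Igf1 receptors and damps their signalling. At its probe (chr11:11833165-11833224, minus strand) the level was -3.58 on the control, -3.70 on replicate 1 and -2.57 on replicate 2. Replicate 2 stood alone, 1.01 above the control, while replicate 1 was at -0.12 from it, or at 0.12 with normexp. The mean difference was 0.45 ± 0.59 (SE), with an adjusted p of 0.920 by limma.

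Among the paternally expressed genes, Peg3, which encodes a zinc finger protein, was near background on every array. Its brighter probe (chr7:6658774-6658833, minus strand, base 6461) read -6.00 on the control and -7.06 on replicate 2, and was not above background on replicate 1. The bound on replicate 1 was at least 1.78-fold lower, replicate 2 was 2.09-fold lower, and the limma fit gave an SE of 0.88 on the log2 scale and an adjusted p of 0.572. The second probe (chr7:6661407-6661466) was above background on the control alone, at -6.84 (adjusted p of the fit 0.235). That level lies under the lowest detected level of replicate 1, -6.83, so no lower value can be shown there; on replicate 2 the bound was at least 1.63-fold lower. Both probes sit near the floor of the arrays: with normexp, replicate 1 was 0.20 and 0.30 above the control at them, and replicate 2 differed by -0.20 and -0.26.

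Mest, a gene for a protein of the alpha/beta hydrolase fold family, was high on 1 Tie-2-Etv2 array only. Its brightest probe (chr6:30698279-30698338, plus strand), also spotted 10 times, gave spots from 439 to 512 in intensity on the control, from 981 to 1132 on replicate 1 and from 404 to 511 on replicate 2. The scaled levels were -2.14, -0.15 and -2.20. Replicate 1 was 3.99-fold above the control, and replicate 2 was close to it (-0.06). Both other Mest probes repeated this, at 2.02 and -0.23 for the probe at 30697385 and at 1.77 and 0.10 for that at 30692160. The mean difference at the brightest probe was 0.97 ± 0.95 (SE), with a limma adjusted p of 0.878.

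Plagl1, a zinc finger transcription factor that regulates other imprinted genes, split the replicates more than any other member at its brightest probe. The brightest of its 4 probes (chr10:12850832-12850891, plus strand) read -1.09 on the control, 0.42 on replicate 1 and -2.15 on replicate 2. The arrays lay on either side of the control, at 1.52 and -1.06, and the mean difference of 0.23 ± 1.17 (SE) had the largest SE of any member (adjusted p 0.982 in the limma fit). The probe at 12851280, which shares the 26-base run with it, gave 1.27 and -1.15. The dimmer pair gave smaller differences, 0.94 and 0.10 at 12848851 and 0.41 and -0.15 at 12848421.

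Ndn, which encodes necdin, a protein of the MAGE family that restrains cell proliferation, hardly differed between arrays. Its probe (chr7:69493847-69493906, plus strand, base 684) read -4.39 on the control, -4.31 on replicate 1 and -4.03 on replicate 2. The differences were 0.08 and 0.35, with the first at -0.12 under spike-in scaling, and their mean of 0.21 ± 0.34 (SE) had an adjusted p of 0.935 by limma.

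Counted by probe, 12 of the 24 tested probes were lower on both Tie-2-Etv2 arrays (against 30.2% of all tested probes), 4 were higher on both (42.5%) and 8 lay on opposite sides (27.3%). Of the 12, 5 were probes of H19, whose brightest probe lay on opposite sides. Of the 24, 6 were 2-fold lower on both arrays (all probes of Meg3 and Peg3 and the coding probe of Dlk1), against 6.26% of the 26214 tested probes, and 0 were 2-fold higher, against 3.81%. Of those 6, 4 were not above background on at least 1 Tie-2-Etv2 array. Grouped by the copy expressed, the 4 maternally expressed members had a median difference of 0.03 on replicate 1 and -0.18 on replicate 2, and the 6 paternally expressed members 0.33 and -0.92. In both groups the medians on replicate 1 and replicate 2 thus lay on opposite sides of the control, as did those of all 10 members (0.13 and -0.67).

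**Figure D3:**
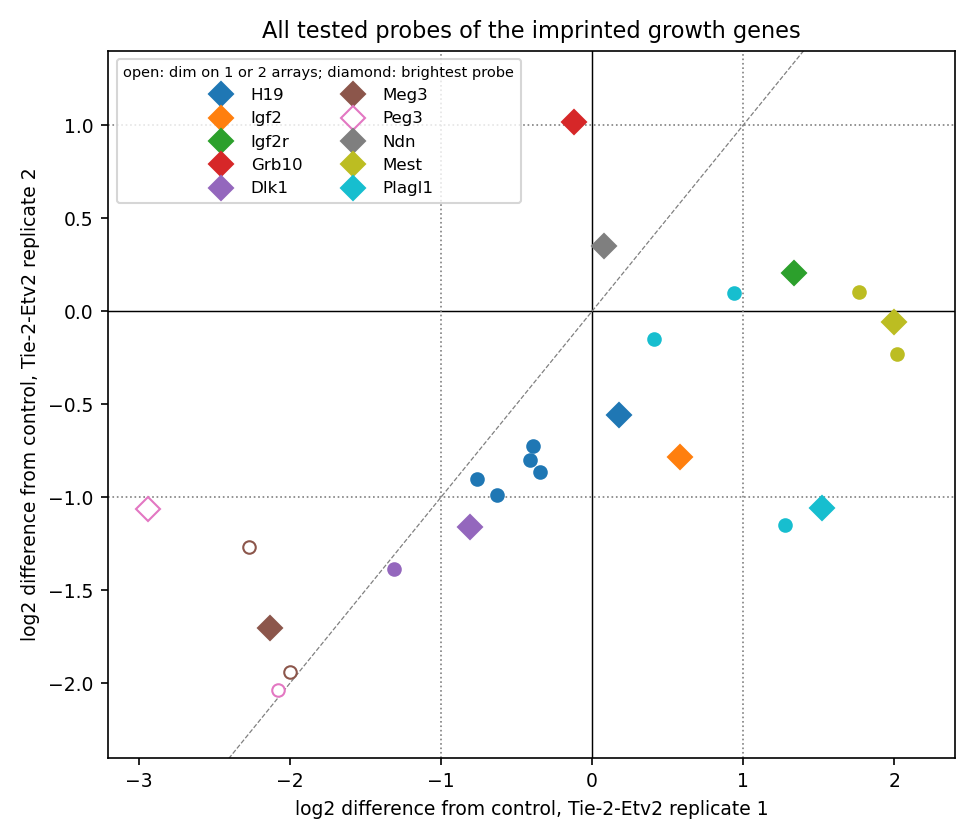
Log2 difference from the control on Tie-2-Etv2 replicate 1 (horizontal) against replicate 2 (vertical) for the 24 tested probes; diamonds are each gene's brightest probe, open symbols are not above background on 1 or 2 arrays, dotted lines mark 2-fold and the dashed line equal differences. Meg3, Peg3 and the coding probe of Dlk1 fall in the lower left corner, and the 3 Mest probes fall together at the right, with replicate 1 near 2 and replicate 2 near 0.

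Set beside their neighbours, the members followed their clusters to different degrees; which gene belongs to which cluster was written down after the values had been seen. In the Dlk1-Dio3 cluster 4 of 6 genes were tested, and the 3 of them detected on all arrays, Dlk1, Meg3 and Mirg, were lower on both under every scaling tried. Mirg, a noncoding RNA of the maternal copy that lies downstream of Meg3 and hosts microRNAs, was at -1.28 on replicate 1 and at -1.66 on replicate 2 (limma adjusted p = 0.325). Dio3, which encodes the enzyme that inactivates thyroid hormone, was at -0.20 on replicate 2; on replicate 1 it was not above background and no lower value can be shown, its control level of -7.04 being under that array's lowest detected level. In the H19-Igf2 cluster, at each gene's brightest probe, all 4 tested genes had the Tie-2-Etv2 arrays on opposite sides of the control, Ins2 at 0.09 and -0.01 and Th at 0.08 and -0.32. These small differences depend on the scaling: with spike-in scaling H19 and Th were lower on both arrays and Ins2 was at -0.11 and 0.03, while Igf2 kept its sides at 0.39 and -0.74.

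In the cluster of Igf2r, the members' neighbours went different ways. Slc22a3, an organic cation transporter gene, was 2.52 and 1.69 above the control (adjusted p = 0.304 by limma), whereas Slc22a2 was at -1.19 on replicate 2 and, dim on replicate 1, at least 3.50-fold below the control there. With normexp Slc22a2 was only at -0.29 on replicate 1 and at -0.55 on replicate 2. Airn, the noncoding RNA made from the paternal copy across Igf2r, was at -0.24 and -0.35 at its brightest probe. Another Airn probe, more distant from that one (chr17:12944784-12944843), was at -1.89 on replicate 2 and dim on replicate 1. Copg2 beside Mest was 0.51 and 0.45 higher, and Ddc beside Grb10 was 0.63 and 0.54 higher; in neither case did the neighbour show the gap between replicates seen in the member.

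**Figure D4:**
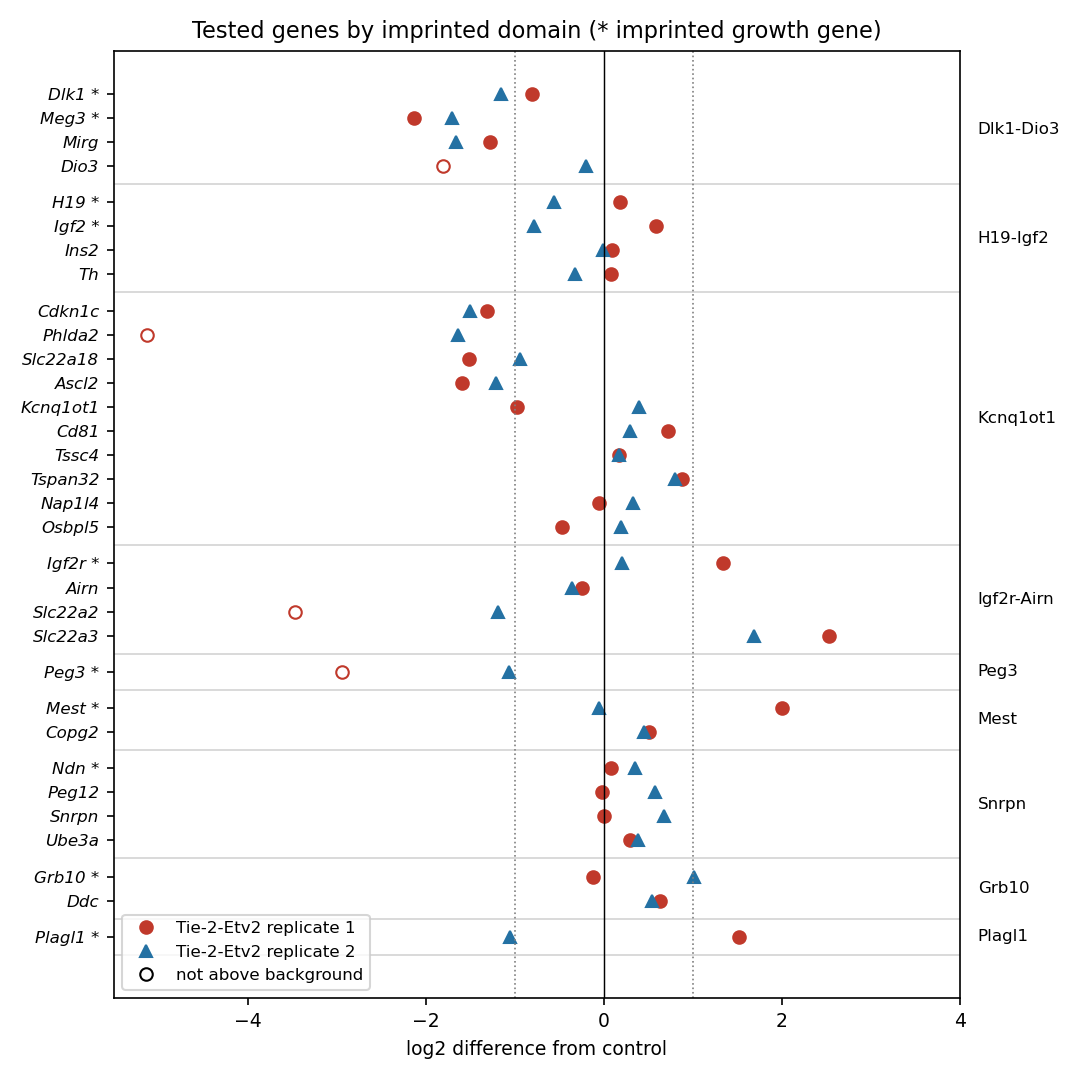
Log2 difference from the control on Tie-2-Etv2 replicate 1 (circles) and replicate 2 (triangles) for the tested genes of each imprinted cluster; asterisks mark the imprinted growth genes, open symbols are not above background and dotted lines mark 2-fold. Dlk1, Meg3 and Mirg have both symbols left of 0, the value of Dio3 on replicate 1 is below background, and in the H19-Igf2 cluster the symbols of each gene lie on either side of 0, which for H19, Ins2 and Th changed with spike-in scaling.

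Of 55 other imprinted genes listed, 52 had a probe and 40 were tested. Of the 40, 19 were lower on both arrays (against 30.9% of all genes), 13 were higher (42.5%) and 8 were on opposite sides (26.6%). Their median was -0.13 (-0.15 on replicate 1 and -0.03 on replicate 2). By their measured signals 8 of them were 2-fold lower on both, against 6.64% of all genes, and 2 were 2-fold higher, against 3.92%. With dim values raised to the lowest level detected on the array 7 were 2-fold lower on both. The highest were Peg13, a noncoding RNA (2.55 and 1.73, adjusted p = 0.294 by limma), and Slc22a3. Cdkn1c, a cyclin-dependent kinase inhibitor that restrains growth, was lower, at -1.31 and -1.50 (adjusted p = 0.311 by limma). Of the 10 tested genes of its cluster, that of Kcnq1ot1, 4 were lower on both arrays, 3 were higher (Tspan32 at 0.87 and 0.79, Cd81 at 0.72 and 0.29, and Tssc4 at 0.17 and 0.17) and 3 lay on opposite sides. Among the lower were the placental growth gene Phlda2 and the transcription factor gene Ascl2. Phlda2 was at -1.63 on replicate 2, with a bound of at least 7.22-fold below the control on replicate 1, and Ascl2 was at -1.59 and -1.21. The bound of Phlda2 depends on the background correction: with normexp it was at -1.04 on replicate 1 and at -0.94 on replicate 2. Dcn, which encodes a matrix proteoglycan, was at least 4.64-fold lower, and Nnat, which encodes a membrane proteolipid, at least 2.20-fold lower; both were above background on the control alone.

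Around Igf2 and Igf2r, 21 of 29 genes of the IGF and mannose 6-phosphate system were tested, with a median of 0.04. Of them 9 were higher on both arrays (against 42.5% of all genes), 9 lower (30.9%) and 3 on opposite sides (26.6%). Over all genes 3.92% were 2-fold higher on both arrays and 6.64% were 2-fold lower. The type 1 receptor gene Igf1r, through which Igf2 signals, was the 1 gene of the list 2-fold higher on both arrays, from -1.36 on the control to 0.07 and -0.25 (differences 1.43 and 1.11, adjusted p = 0.358 by limma). The smaller mannose 6-phosphate receptor gene M6pr, which like Igf2r sorts enzymes to lysosomes, read 0.76 on the control and 0.75 on both Tie-2-Etv2 arrays. By their measured signals 3 genes were lower by 2-fold on both. Grb7, an adaptor gene of the Grb10 family, was at least 6.22-fold lower on replicate 1 and at -1.58 in log2 on replicate 2. The other 2 were Igfbp5, a gene for an IGF binding protein, and Htra1, a gene for a protease that cuts IGF binding proteins. Both were above background on the control alone. The bound of Igfbp5 was at least 1.37-fold lower on replicate 1 and at least 1.76-fold over both arrays. That of Htra1 was at least 1.61-fold lower on replicate 2, and on replicate 1 no lower value can be shown. With dim values at the lowest detected level 1 of these 3 was still 2-fold lower on both.

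Genes listed for imprint maintenance, among them Dnmt3a, Dnmt3b, Tet1, Tet2 and Tet3, had a median near that of all genes. Of 22 listed 19 were tested, and the median was 0.11 (0.11 and 0.10), beside 0.07 over all genes. On both arrays 0 were 2-fold lower, against 6.64% of all genes, and 0 were 2-fold higher, against 3.92%. Dnmt3b differed most in the list, at 0.91 and 0.58, and Setdb1 was the lowest, at -0.48 and -0.44. By way of example, chosen after their values were seen, the maintenance methyltransferase gene Dnmt1 was 0.23 and 0.34 higher, and Ctcf, whose protein binds the control region between H19 and Igf2, was 0.26 and 0.22 higher. Zfp57, a zinc finger gene whose protein binds methylated imprinting control regions, was 0.14 above the control on replicate 1 and level with it on replicate 2.

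Lists of markers of the other cells that such a sort could hold also differed from the control. The counts below stand beside 6.64% of all genes 2-fold lower on both arrays and 3.92% 2-fold higher. Of 20 macrophage markers, all tested, 17 were 2-fold lower on both arrays (median -5.21 on replicate 1 and -2.63 on replicate 2; sums of 87.5, 15.7 and 24.8), with Timd4 at least 8.36-fold lower and Adgre1 at -6.13 and -4.28. The other 3 were higher on both, Lyz2 at 1.15 and 1.01, Lyz1 at 1.93 and 0.87 and Itgam at 1.24 and 0.84. Of 14 tested erythroid markers 8 were 2-fold lower (sums of 62.0, 15.0 and 21.4), with Hba-x, an embryonic globin gene, at -2.44 and -1.99 and Rhd at least 3.03-fold lower. Endothelial markers were mostly higher: 13 of 19 by 2-fold on both, with sums of 14.2, 61.7 and 30.9, led by Sox18, not above background on the control, and Notch4 at 4.44 and 2.74. Cldn5 (2.41 and -0.34) and Emcn (2.07 and -0.29) lay on opposite sides. Of 17 tested progenitor markers 6 were 2-fold higher and 2 lower (sums of 28.2, 55.9 and 48.2), with Itga2b 2.12 and 2.47 higher and Flt3 at -2.48 and -2.12. In the visceral endoderm list Dab2 was at -5.24 and -3.13, and Sox17, which endothelium also expresses, was higher. Trophoblast markers gave 4 tested of 14, with 0 of them 2-fold apart; Gcm1 was 0.31 and 0.93 higher and Prl3b1 1.48 and 0.27 higher. In the visceral endoderm, macrophage and endothelial lists replicate 1 was further from the control than replicate 2, and in the mesenchyme list it was nearer to it. The part of any of these cells in the values of Mest, Igf2r, Plagl1 or the other members was not tested.

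**Figure D5:**
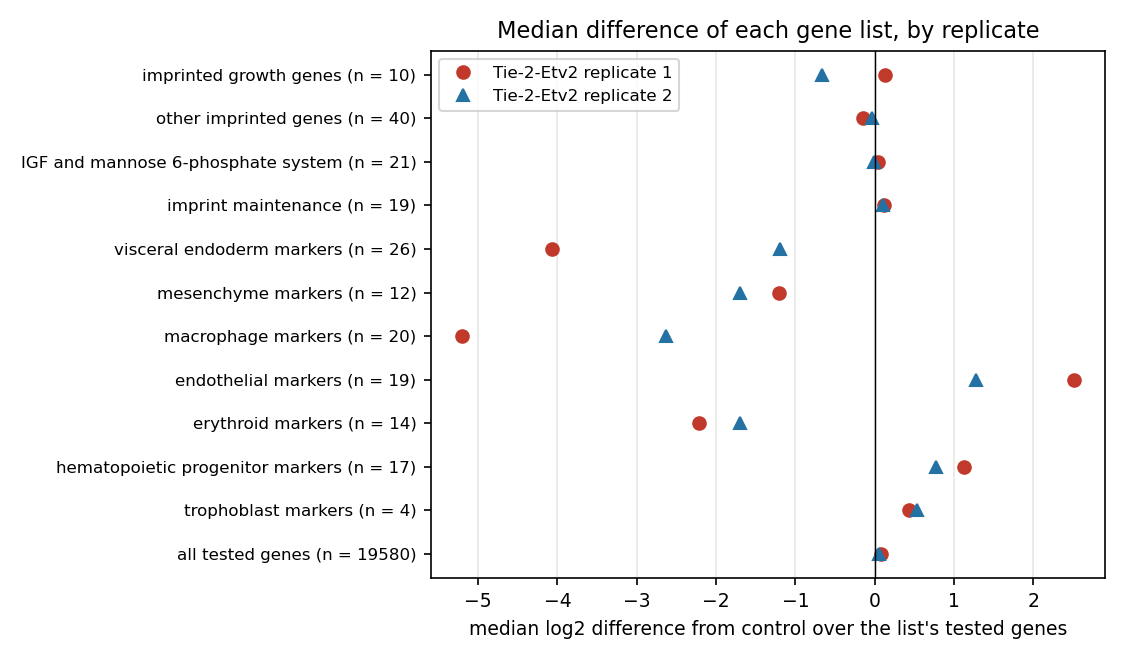
Median log2 difference from the control over the tested genes of each list, for Tie-2-Etv2 replicate 1 (circles) and replicate 2 (triangles), with the number of tested genes beside each name. The imprinted growth genes lie at 0.13 and -0.67 and the other imprinted genes at -0.15 and -0.03, beside 0.08 and 0.05 for all genes. The macrophage, visceral endoderm, endothelial, erythroid, mesenchyme and progenitor lists lie further out on both arrays.

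Likeness in pattern was measured for H19 and Igf2 as the distance between pairs of differences (replicate 1 and replicate 2 from the control) over 17204 genes detected on all arrays. Each gene was taken at its brightest probe. For H19 that probe was at 0.18 and -0.56, while its other 5 tested probes were lower on both arrays. With spike-in scaling the brightest was lower on both as well. The nearest to H19 with a gene name was Ulk2, an autophagy kinase gene, at 0.17 and -0.57 (distance 0.0178), and the nearest to Igf2 was Gem, a small GTPase gene, at 0.52 and -0.77 (distance 0.0659). The other 2 of the 3 nearest in each case had no gene name in the files. Only 3 arrays stand behind this measure, so the ranking describes these arrays.

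Promoters were read from RefSeq on GRCm38.p6, where 9 of the 10 members matched, at 16 start sites; H19 had no entry. The windows printed are the 250 bases before the start of Dlk1 (chr12:109452573-109452822, plus strand) and of Meg3 (chr12:109540746-109540995, plus strand), the cluster pair that was lower on both arrays. Capitals mark GGAA, the core of the sites that ETS factors such as Etv2 bind, and TTCC, the same letters on the other strand.
Dlk1, promoter: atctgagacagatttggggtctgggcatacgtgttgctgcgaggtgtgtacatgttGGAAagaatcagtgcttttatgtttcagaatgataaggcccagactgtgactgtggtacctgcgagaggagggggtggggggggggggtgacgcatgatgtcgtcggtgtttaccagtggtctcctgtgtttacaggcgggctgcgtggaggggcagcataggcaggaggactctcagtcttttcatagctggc
Meg3, promoter: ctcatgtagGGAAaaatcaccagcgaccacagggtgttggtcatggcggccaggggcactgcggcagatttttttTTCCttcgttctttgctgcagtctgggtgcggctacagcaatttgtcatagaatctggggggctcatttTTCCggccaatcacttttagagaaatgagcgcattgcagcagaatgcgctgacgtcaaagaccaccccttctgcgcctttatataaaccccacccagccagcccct
The window of Dlk1 held 1 GGAA and that of Meg3 held 3, and 15 of the 16 windows held at least 1, the exception being Plagl1. Over 32851 promoter windows of the same length 93.4% held GGAA, so the 4 letters are common. The longer ETS sequence CCGGAAGT, which contains GGAA, was searched on both strands and occurred in 0 of the 16 windows, against 2.88% of all windows.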

How the data were processed

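The deposited intensity values are spot signals from Agilent Feature Extraction, version 10.7 per the submitters' processing notes and 10.7.3.1 per the file headers, background-subtracted and not scaled between arrays. The authors' deposited log2 table differed from the log2 intensity by 1 constant per array (0.76 on replicate 1 and -0.02 on replicate 2; 100% of 55668 probes within 0.01), with column medians of 0, 0.14 and 0; its scale, centring and direction were settled from the values, and it served as an alternative. Control and outlier spots (168 to 174 per array) were left out, repeat spots averaged on the log2 scale, and each array's 75th percentile (2073, 1199 and 2092 in intensity) subtracted. Probes well above background on the control or on both Tie-2-Etv2 arrays were tested: 26214 probes of 19580 genes, a gene being represented by its brightest probe. The fit was limma 3.58.1 (lmFit and eBayes, two-sided, Benjamini-Hochberg over all tested probes) run in R 4.3.3 (version 1.17.8 of data.table), with 1 residual and 3.92 total degrees of freedom, and was tested on simulated data. The number of arrays limits the precision. RefSeq names (GRCm38.p6) replaced file names where they matched (26582 probes by accession, 2602 by symbol, 492 by synonym, 26005 unmatched). Probe coordinates are mm9, per the file headers. The values of 1 member probe and the name of 1 marker gene are not reported here. The members and lists were chosen with earlier results of these data known. Named from the lists by rule were the genes 2-fold apart on both arrays with the largest smaller difference, and 2 genes of each marker list. Further genes were named outside this rule after their values had been seen. Among them were cluster neighbours, M6pr, the genes of the imprint maintenance list, and list members that went the other way.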

Additional observations from a re-analysis of the deposited data

How the results depend on the processing

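No paired analysis was possible because the control group is 1 array whose label carries no replicate number. With 1 control array, leaving out a Tie-2-Etv2 array leaves 1 against 1, a value with no test. The median difference of all genes on replicate 1, 0.08, became 0.31 with normexp and -0.12 with spike-in scaling. Genes passing went from 0 to 609 with normexp, where limma shared 1 spread among all probes, and to 440 with no filter on dim probes; the cause was not tested. Genes 2-fold apart on both arrays, 2067, became 800 with normexp, 1095 with only probes detected on all arrays, and 2529 to 3978 with 1 Tie-2-Etv2 array left out. Members passing went from 0 to 1 with normexp. Members 2-fold apart, 2, became 1 with normexp, 1 with only probes detected on all arrays and 1 with dim values at the lowest detected level. They became 3 with spike-in scaling, where Dlk1 was at -1.01 and -1.12, and 3 with the mean of all probes of a gene. With either Tie-2-Etv2 array left out they became 5. With 1 Tie-2-Etv2 array left out Grb10 ran from -0.12 to 1.01, H19 from -0.56 to 0.18, Igf2 from -0.78 to 0.59, Mest from -0.058 to 1.996 and Plagl1 from -1.06 to 1.52, so each took both signs. Meg3 ran from -2.13 to -1.51 and Dlk1 from -1.17 to -0.81 over the alternatives; Peg3 ran from -2.94 to -0.00 and had no value with only probes detected on all arrays. With normexp, medians were 0.16 for the IGF list, 0.14 for imprint maintenance, 0.074 for the other imprinted genes, -1.09 for erythroid and -0.39 for mesenchyme markers. With no filter they were 0.079, 0.13 and 0.046 for the same first 3 lists, -0.63 for mesenchyme and 0.076 for trophoblast markers. With only probes detected on all arrays they were 0.18 (IGF), 0.028 (other imprinted) and 0.62 (trophoblast). Spike-in scaling gave -0.041 (IGF), 0.030 (imprint maintenance), -0.21 (other imprinted) and 0.42 (trophoblast), and quantile normalization gave -0.018 (IGF) and 0.087 (imprint maintenance). For imprint maintenance the 75th percentile over all probes gave 0.094, the authors' log2 values 0.091 and the mean of all probes of a gene 0.048, the last with -0.043 for the IGF list. With 1 Tie-2-Etv2 array left out the medians ran from -0.0065 to 0.044 (IGF), 0.099 to 0.11 (imprint maintenance), -0.15 to -0.035 (other imprinted), -1.70 to -1.21 (mesenchyme) and 0.77 to 1.13 (progenitor). Signal over background limits Peg3 and the dimmer Meg3 probes, for which the arrays give bounds.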
